A study of Mus musculus with 22 samples.

Results

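A set of 44 autophagy and lysosome genes was examined in mouse hippocampal CA1, chosen by symbol for their function, with earlier results of these data known. All 44 symbols were found among the 23361 genes of the expression table, and all 44 were among the 16978 genes tested. The set was divided by function into 25 genes of the autophagy machinery, 17 genes for lysosomal enzymes and membrane proteins, and the transcription factors Tfeb and Tfe3. The mice, female F1 offspring of Swiss Webster x DBA/C57BL6, were fed ad libitum (AL) or given a calorie-restricted (CR) diet, cut in carbohydrates, from young adulthood onward. CA1 was microdissected at 5 months from 5 AL and 5 CR mice and at 15 months from 6 AL and 6 CR mice. Each of the 22 libraries came from 1 mouse, and levels are the FPKM (fragments counted per unit of exon length and of sequencing depth) deposited by the authors.

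Macroautophagy encloses cytoplasm in a double membrane, the autophagosome, and delivers it to the lysosome for digestion. The Ulk kinase complex starts the process, a lipid kinase complex around Becn1 and Pik3c3 marks the site, and a conjugation system attaches Atg8 family proteins to the growing membrane. Cargo receptors tie ubiquitinated proteins and damaged organelles to the Atg8 proteins. Lysosomal proteases and glycosidases then degrade what arrives, and loss of many of these enzymes causes lysosomal storage disease with damage to neurons. Nutrient shortage is the classical trigger of autophagy, and mRNA abundance alone does not report how much material passes through the pathway.

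The libraries differed in tissue makeup as well as in age and diet. The summed level of 8 CA1 pyramidal neuron markers ranged from 145 to 599 FPKM over the 22 libraries, and none of these markers was at 0 throughout. The region score, the mean log2 level of 9 neocortex and subiculum markers minus that of the CA1 markers, ran from -2.53 to -1.048 in AL mice at 5 months and from -0.44 to 0.67 in AL mice at 15 months, with no overlap. It ran from -2.67 to -1.68 in CR mice at 5 months and from -2.38 to 0.05 in CR mice at 15 months. The sum of 7 choroid plexus markers was at most 30.0 FPKM in AL mice at 5 months and at most 3.93 FPKM in any mouse at 15 months, but it was 49.9 FPKM in CR 5 months replicate 3 and 238 FPKM in CR 5 months replicate 4. In such bulk tissue, fewer cells of a type and less RNA per cell cannot be told apart.

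Tfeb and Tfe3 bind the letters CACGTG, most strongly in the longer form TCACGTGA, upstream of many lysosomal genes. RefSeq promoter windows, from 250 bases before to 50 bases after an annotated start on GRCm38, were held for 37 of the 44 genes and not for Atg12, Atg16l1, Becn1, Ctsb, Map1lc3a, Npc1 and Pik3c3. The core letters, which read the same on both strands, occurred in windows of 12 of the 37 genes (32.4%) and of 8.09% of all 27025 genes with a window. The extended letters, each of which contains a core match, occurred for 6 genes (16.2%), namely Atg3, Cln3, Ctsa, Ctsd, Gla and Mcoln1, and for 1.12% of all genes. The lysosomal genes held most of them, with the core in 8 of 15 (53.3%) and the extended letters in 5 of 15 (33.3%), against 4 of 20 (20.0%) and 1 of 20 (5.0%) of the autophagy machinery. Over protein-coding genes with a window, the shares were 8.91% for the core and 1.41% for the extended letters. Of the genes called in later comparisons, Optn, Ulk1 and Atg4b hold no core match in their windows. A letter match does not show that a factor was bound, and no count of matches was tested. Sequences are shown for 6 genes, because Lamp1 carries 4 core matches within 64 bases, Mcoln1, Ctsd and Atg3 carry the extended letters, and Mcoln1, Atg14 and Gaa are among the genes called in the comparisons that follow. They read 5′ to 3′ on the strand of the gene, with the matched letters in capitals, and were taken from RefSeq on GRCm38.
Lamp1, chr8:13159094-13159157, plus strand: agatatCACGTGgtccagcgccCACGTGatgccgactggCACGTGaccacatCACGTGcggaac
Mcoln1, chr8:3500462-3500491, plus strand: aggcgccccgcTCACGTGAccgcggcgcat
Ctsd, chr7:142387908-142387937, minus strand: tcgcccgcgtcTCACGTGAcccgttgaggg
Atg3, chr16:45158746-45158775, plus strand: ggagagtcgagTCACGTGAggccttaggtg
Atg14, chr14:47568418-47568447, minus strand: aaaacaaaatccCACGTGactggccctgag
Gaa, chr11:119267811-119267840, plus strand: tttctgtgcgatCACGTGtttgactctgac
The middle of the printed match lay 42 bases before the RefSeq start of Mcoln1, 95 before that of Ctsd, 68 before that of Atg3 and 137 before that of Gaa, and 2 bases after that of Atg14. The 4 core matches of Lamp1 spanned bases -61 to -10 from its start.

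Transcripts of the set were abundant in CA1. Their median level stood at the 78.6th percentile of the tested genes, and mean FPKM over the 22 libraries ran from 3.68 for Tfeb to 492 for Psap, the precursor of the saposins that help enzymes degrade sphingolipids. Among the machinery, the 5 Atg8 family genes were the highest as a group, from 129 FPKM for Gabarap to 302 FPKM for Gabarapl1, and the cargo receptor Sqstm1 (p62) stood at 207 FPKM. The other machinery genes were lower, from 8.72 FPKM for the phosphoinositide-binding Wipi1 to 64.4 FPKM for Becn1. Optn, a cargo receptor for mitochondria and bacteria, was at 9.38 FPKM, far below Sqstm1 and below Nbr1 at 47.2 FPKM. Among lysosomal genes, the aspartic protease Ctsd (174 FPKM), the membrane protein Lamp1 (137 FPKM), the cysteine protease Ctsb (102 FPKM) and the acid alpha-glucosidase Gaa (93.3 FPKM) followed Psap. Gla, the alpha-galactosidase lost in Fabry disease, was the lowest lysosomal gene at 5.11 FPKM, next to Cln3 at 6.45 FPKM. Reads were not assigned by strand, and 43.9% of the exonic bases of Becn1 and 34.4% of those of Ctsd are shared with other annotated genes. For Atg9a the share is 32.6%, for Gabarapl1 28.3% and for Ctsl 26.8%. Other annotated genes with near-identical transcript sequence (at least 95% over at least 100 bases) number 69 for Uvrag, 29 for Ctsl, 8 for Atg12, 3 for Gabarapl2 and 1 for Atg9a, and the levels of all these genes are less certain.

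**Figure D1:**
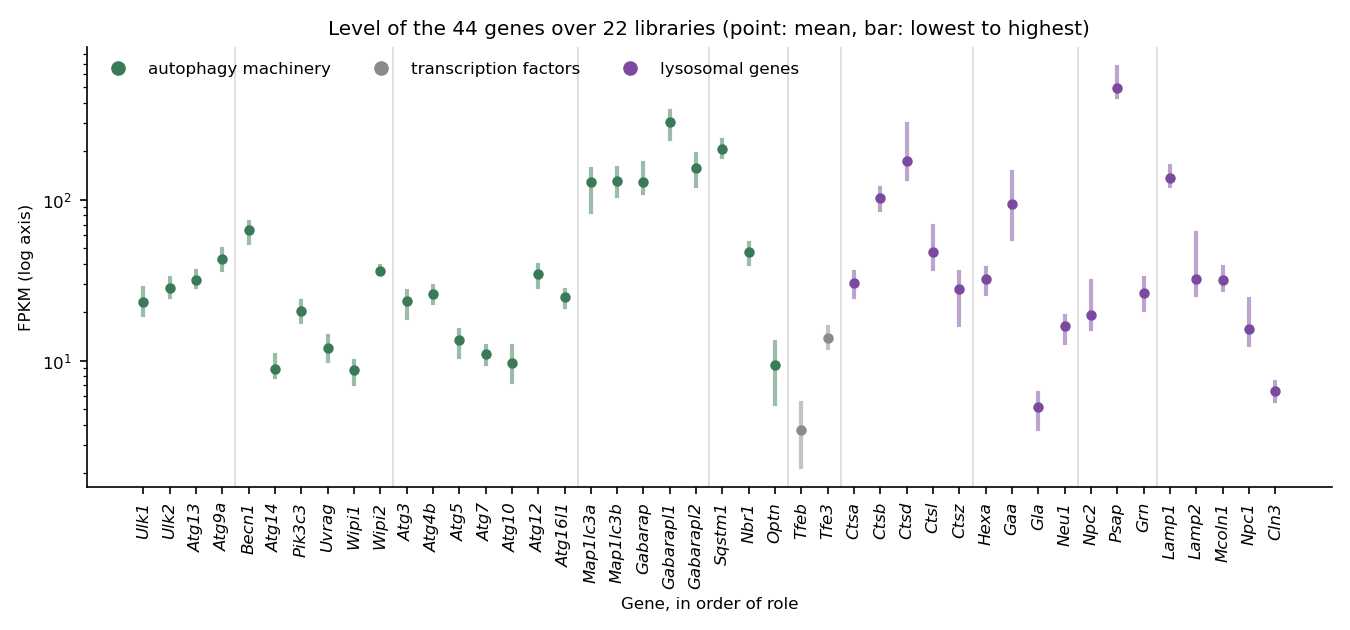
Mean FPKM over 22 libraries (points, log axis) with the lowest and highest library (bars) for the 44 genes, in order of role and separated by vertical lines where the role changes. Psap (492 FPKM), Gabarapl1 (302 FPKM) and Sqstm1 (207 FPKM) were highest and Tfeb (3.68 FPKM) lowest.

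The machinery varied little between mice. The standard deviation within groups of log2(FPKM + 0.1) had a median of 0.115 over the 25 machinery genes and 0.161 over the 17 lysosomal genes. The median was 0.220 over all tested genes and 0.173 over the 11077 tested genes within the range of mean FPKM that the 44 genes span. Those genes were not matched to the set in level within that range, and the part of level in the difference was not tested. Wipi2 (chr5:142627698-142670588, plus strand of GRCm38), which recruits the conjugation machinery to the early membrane, had the lowest standard deviation of all 16978 tested genes, 0.045. Its FPKM was 35.3, 37.1, 35.7, 34.7 and 36.5 in AL mice at 5 months and 34.3, 36.8, 38.5, 34.7 and 35.0 in CR mice at 5 months. At 15 months Wipi2 ranged from 35.0 to 37.1 FPKM (median 35.8) in AL mice and from 35.4 to 37.8 FPKM (median 36.6) in CR mice. The 4 groups overlapped fully, and the highest of the 22 libraries was 1.12-fold above the lowest. Wipi2 also ranked lowest of the 13839 genes with a mean of at least 1 FPKM when 1 was added before taking logs, and it ranked 17 from the lowest after the libraries were shifted to a common median.

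At the other end, Ctsd, Npc1, Ctsl, Lamp2, Optn, Ctsz, Gaa and Tfeb varied more than the median of all tested genes. Gaa spanned 2.63-fold over the 22 libraries, Tfeb 2.502-fold, Lamp2 2.44-fold and Optn 2.43-fold. Among these, only Optn and Tfeb are not lysosomal genes.

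**Figure D2:**
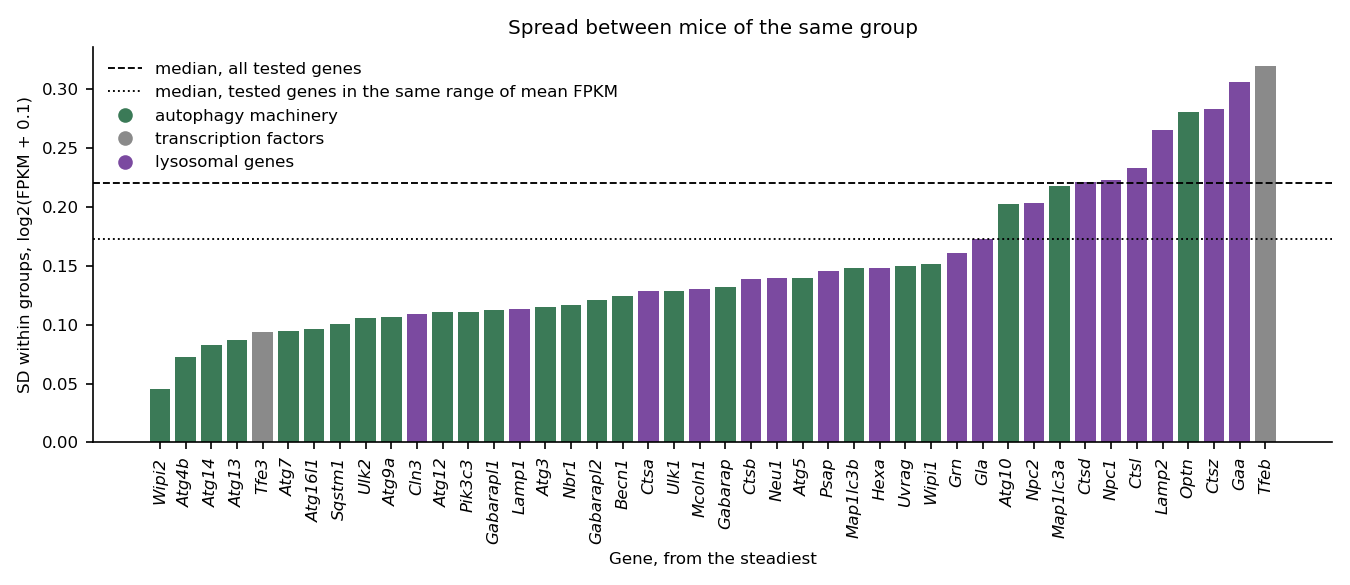
Standard deviation within groups of log2(FPKM + 0.1) for the 44 genes (bars, coloured by class), ordered from the lowest, with the median of all tested genes (dashed line, 0.220) and of tested genes in the same range of mean FPKM (dotted line, 0.173). Wipi2 is lowest at 0.045 and Tfeb highest at 0.320.

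Age in AL mice was compared first, to ask whether the pathway's transcripts differed between younger and older adults on unrestricted food. At 15 months Optn, Ulk1 and Mcoln1 were higher and Atg14 and Atg4b lower than at 5 months, and the other 39 genes did not pass the threshold, a limma adjusted p under 0.05 over all tested genes. The 5 calls are 11.4% of the set, where 20.6% of all tested genes and 21.4% of those in the same range of mean FPKM were called. By direction, 3 genes of the set were higher, against 10.7% of all tested genes, and 2 were lower, against 9.97%. After every library was shifted to the same median, 2 genes were higher (Optn and Ulk1) and 4 lower (Atg3, Atg4b, Atg14 and Gabarapl2). The count fell to 2 without AL 5 months replicate 1 or 2, to 3 without AL 5 months replicate 0 or 4 or AL 15 months replicate 1, 3 or 4, and rose to 8 without CR 15 months replicate 2, with Atg3, Gabarap and Gabarapl2 added. At an unadjusted limma p under 0.05 there were 9 genes of the set (20.5%), beside 35.2% of all tested genes. The median absolute log2 fold change came to 0.096 over the set and 0.168 over tested genes in the same range of FPKM. It was 0.10 over the machinery and 0.042 over the lysosomal genes.

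Optn had 7.23, 8.73, 7.69, 6.17 and 8.77 FPKM in AL mice at 5 months, and 9.73 to 13.1 FPKM (median 12.03) in AL mice at 15 months. Every older AL library was above every younger one. The log2 fold change came to 0.61 (SE 0.16, limma adjusted p = 0.0127), or 52.6% with a 95% interval from 20.5% to 93.1%, and the exact two-sided permutation p of 0.00216 is the smallest that 5 mice against 6 allow. Optn lies at chr2:5020642-5064051 on the minus strand (GENCODE on GRCm38, as are the gene positions that follow), and 1.95% of its exonic bases are shared with another annotated gene.

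Ulk1 (chr5:110784488-110810097, minus strand) is the kinase that starts autophagosome formation and responds to mTORC1 and AMPK. It had 21.7, 20.3, 19.6, 19.1 and 20.8 FPKM in AL mice at 5 months. At 15 months AL mice had 22.03 to 28.0 FPKM (median 24.6), again without overlap. Its log2 fold change came to 0.29 (SE 0.08, limma adjusted p = 0.0122; exact permutation p = 0.00433). Its relative Ulk2 was at 27.9 and 27.1 FPKM, a log2 fold change of -0.05. Of the other induction genes, Atg13, a subunit of the Ulk complex, differed by 0.10 (limma adjusted p = 0.203), and Atg9a, the lipid scramblase of the early membrane, also fell short of the threshold.

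Mcoln1 (chr8:3500457-3515232, plus strand), a calcium channel of the lysosomal membrane, was the only lysosomal gene called. It had 31.9, 27.5, 27.3, 28.5 and 29.0 FPKM at 5 months and 31.9 to 37.8 FPKM (median 34.2) at 15 months in AL mice. The groups touched at 1 library each, AL 5 months replicate 0 and AL 15 months replicate 4. The log2 fold change came to 0.26 (SE 0.08, limma adjusted p = 0.0260), and it was 0.21 (limma adjusted p = 0.0640) after libraries were shifted to a common median. The call was also lost without AL 5 months replicate 1 (adjusted p = 0.0629), AL 5 months replicate 2 (0.0680) or AL 15 months replicate 0 (0.0568). The extended match printed for Mcoln1 lies before its RefSeq start but inside the GENCODE span, which begins further upstream. The same holds for the match printed for Ctsd. The match printed for Atg14, just after its RefSeq start, also lies inside its GENCODE span.

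Atg14 (chr14:47540893-47570649, minus strand) directs the Becn1 and Pik3c3 complex to the site of autophagosome formation. It had 9.01, 9.53, 8.90, 9.25 and 9.41 FPKM in younger AL mice and 7.93 to 8.66 FPKM (median 8.06) in older ones. Every older AL library was below every younger one. The decrease was small, with a log2 fold change of -0.17 (SE 0.06, limma adjusted p = 0.0473; exact permutation p = 0.00433). Atg4b (chr1:93751500-93790610, plus strand), the protease that trims Atg8 proteins, had 26.4, 27.4, 25.9, 25.0 and 27.9 FPKM in younger AL mice and 22.8 to 25.1 FPKM (median 24.3) in older ones. The groups of Atg4b overlapped narrowly, and the log2 fold change came to -0.15 (SE 0.05, limma adjusted p = 0.0422). These 2 calls lie close to the threshold: Atg14 passed without AL 15 months replicate 0 or 5 and Atg4b without AL 5 months replicate 3 or AL 15 months replicate 2 or 5, but neither passed without any other single AL library, where adjusted p reached 0.105 and 0.112. Atg14 also missed the threshold without CR 5 months replicate 0, 1 or 4 or CR 15 months replicate 1 or 5, which share the estimate of spread (adjusted p from 0.0512 to 0.0558). Optn and Ulk1 kept their calls whichever single library was left out.

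The libraries of only 3 of the 44 genes (6.82%), Optn, Ulk1 and Atg14, did not overlap between AL mice at 15 and 5 months, where 14.0% of all tested genes did not. These differences ran alongside the region score, which separated the same libraries. With the region score as a covariate, the log2 fold changes were 0.11 for Optn, 0.19 for Ulk1, 0.07 for Mcoln1, -0.08 for Atg14 and -0.11 for Atg4b, with limma adjusted p from 0.557 to 0.875, and 0 of the 44 genes and 1 of the 16978 tested (0.00589%) were called. Since the score does not overlap between these groups, age and tissue makeup cannot be told apart here. With the microglia score as a covariate, 0 of the 44 genes passed (limma adjusted p = 0.0578 for Optn), where 10.6% of all tested genes did. The summed microglia markers overlapped, at 210 to 245 FPKM at 5 months and 114 to 248 FPKM at 15 months. All 10 microglia markers had a log2 fold change below 0 with age in AL mice (median -0.31, 1 called by limma). With the choroid plexus score, Optn and Atg14 passed, where 10.2% of all tested genes did. The summed level of 6 oligodendrocyte markers also moved with age in AL mice, at 1055 to 1661 FPKM at 5 months and 509.6 to 1137 FPKM at 15 months. All 6 had a log2 fold change below 0 (median -0.85, 1 called by limma), and their part in the calls was not tested.

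**Figure D3:**
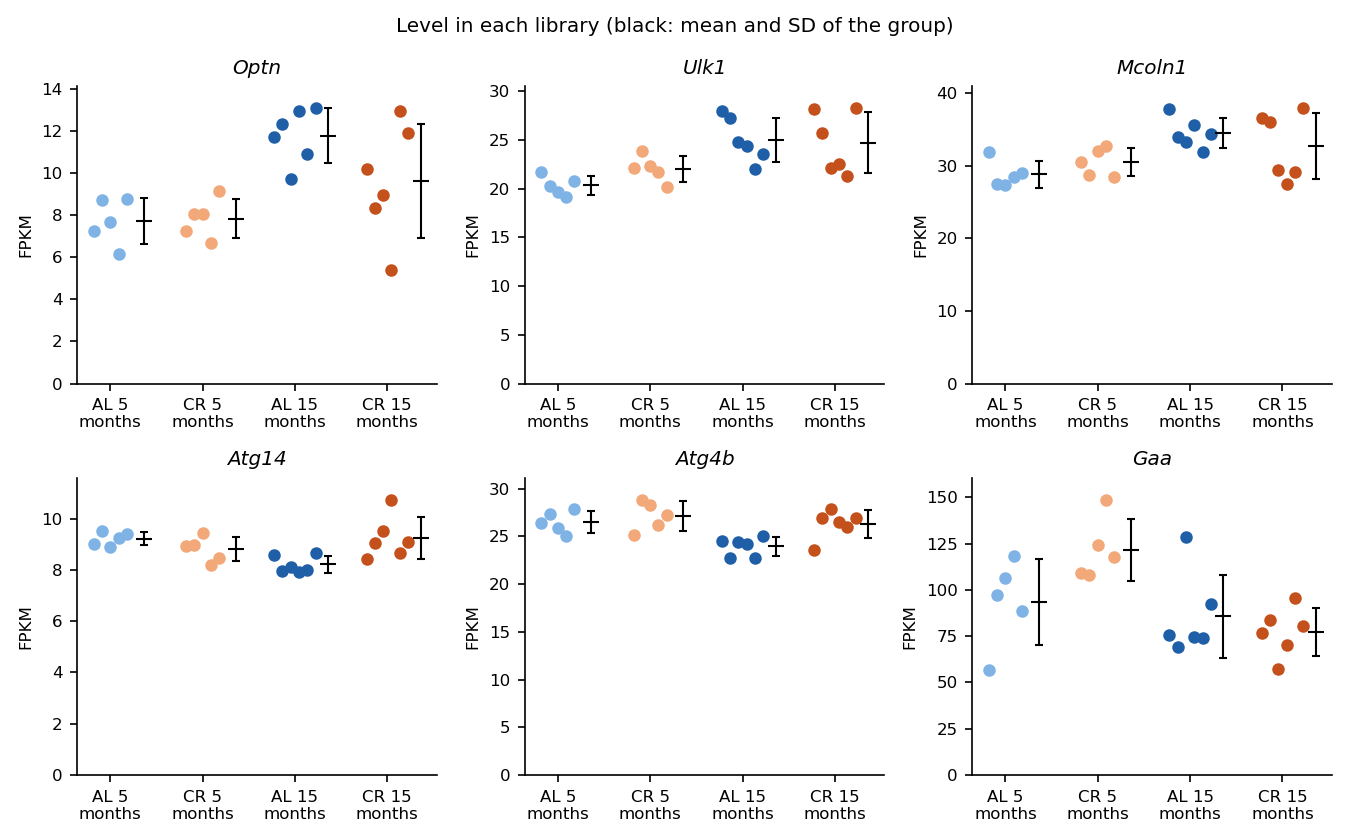
FPKM in each library (points, in replicate order) of the 6 genes called in any comparison, by group, with the group mean and SD in black (n = 5 per group at 5 months, n = 6 at 15 months). Optn and Ulk1 are higher in all AL libraries at 15 months than in all AL libraries at 5 months, and Gaa is lower in all CR libraries at 15 months than in all CR libraries at 5 months.

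The remaining genes of the set gave small values with age in AL mice. Of the 5 Atg8 family genes, which carry the lipid anchor, 4 had a log2 fold change below 0, and the median was -0.15. Map1lc3a (0.04) was at -0.003 after every library was shifted to the same median. The size of these values depended on the scaling. After quantile normalization they were -0.022 for Gabarapl1, -0.031 for Map1lc3b, -0.083 for Gabarap, -0.095 for Gabarapl2 and 0.147 for Map1lc3a. Gabarapl2 was at 167 FPKM at 5 months and 145 FPKM at 15 months (log2 fold change -0.20, limma adjusted p = 0.0683). Gabarap was at 135 and 119 FPKM (-0.18, limma adjusted p = 0.123), while Map1lc3a, which encodes LC3A, was at 127 and 131 FPKM (0.04). Among 7 conjugation genes only Atg4b was called, and Atg3, the enzyme that transfers the lipid, came next at 24.1 and 21.1 FPKM (-0.19, limma adjusted p = 0.0597). Among 6 nucleation genes only Atg14 was called, and the values of the other 5 ran down to -0.13. Sqstm1 and Nbr1, the cargo receptors beside Optn, had log2 fold changes of -0.04 and -0.06, of which that of Sqstm1 was 0.08 after quantile normalization. Of 5 lysosomal proteases, 4 glycosidases and 3 other luminal proteins, 0 were called, and their log2 fold changes lay between -0.15 and 0.20. Tfe3 was at 13.1 and 14.7 FPKM (0.16, limma adjusted p = 0.0670), and Tfeb at 3.99 and 3.32 FPKM (-0.28, limma adjusted p = 0.296).

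The same comparison for 88 further pathway genes gave 16 calls. Of 25 other machinery genes 5 were higher and 3 lower, of 30 other lysosomal enzymes and luminal proteins 3 were higher and 2 lower, of 15 other lysosomal membrane proteins 1 was higher and 2 were lower, and of 18 subunits of the vacuolar ATPase, the proton pump of the lysosome, 0 were called. These are 32.0%, 16.7%, 20.0% and 0% of the lists, beside 20.6% of all tested genes. The median log2 fold changes of these lists were -0.02, 0.09, 0.06 and -0.07, beside -0.002 over all tested genes. Among those called, Atg16l2, a relative of Atg16l1, was higher (7.42 and 11.99 FPKM, log2 fold change 0.68, limma adjusted p = 0.00772). The lysosomal amino acid sensor Slc38a9 (0.40) and the iduronidase Idua (0.35) were also higher. The largest decreases were in the protease Ctsc (-0.63), the Ulk complex subunit Atg101 (-0.57; 39.4 and 26.6 FPKM) and the fucosidase Fuca1 (-0.46). The induction step held called genes in both directions, Ulk1 and Atg101.

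Diet at 15 months was compared next, to ask whether CR altered the pathway in older mice. None of the 44 genes was called by limma, where 0.742% of all tested genes (126) were. At an unadjusted limma p under 0.05 there were 5 genes (11.4% of the set), beside 17.1% of all tested genes. They were 5 of the 25 machinery genes, and Optn was the only one of them lower under CR. Of the 25, 18 had a log2 fold change above 0, and 13 did after quantile normalization. The 95% interval of the difference lay within 1.5-fold in either direction for 43 of the 44 genes and within 2-fold for 44. In 0 of the 44 genes did the libraries of the diets fail to overlap, beside 0.984% of all tested genes.

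The 3 genes with the smallest p were Atg14 and the conjugation genes Atg12 and Atg3. Atg14 had 7.93 to 8.66 FPKM (median 8.06) in AL mice and 8.43 to 10.7 FPKM (median 9.06) in CR mice at 15 months, a log2 fold change of 0.17 (SE 0.06, limma adjusted p = 0.143). Atg12, the ubiquitin-like protein joined to Atg5, had 28.6 to 35.4 FPKM (median 31.2) and 33.5 to 39.4 FPKM (median 36.5), a log2 fold change of 0.19 (SE 0.07, limma adjusted p = 0.148). Atg3 had 18.3 to 23.4 FPKM (median 21.4) and 20.8 to 26.9 FPKM (median 23.9), a log2 fold change of 0.20 (SE 0.07, limma adjusted p = 0.153). In each case the CR libraries sat higher on average but overlapped the AL libraries. Without CR 15 months replicate 0, Atg3 (adjusted p = 0.0437) and Atg4b (0.0435) passed, and no other single library changed a call. The other genes with an unadjusted limma p under 0.05 were Atg4b at 0.13 and Optn at -0.34. Of the 88 further pathway genes 0 were called, and Idua came closest among those called with age (-0.36, limma adjusted p = 0.0559).

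The AL libraries at 15 months enter both of these comparisons, so their values are not independent. Side by side, with age in AL mice first and CR against AL at 15 months second, the log2 fold changes were 0.61 and -0.34 for Optn, -0.17 and 0.17 for Atg14, -0.15 and 0.13 for Atg4b, 0.26 and -0.08 for Mcoln1, and 0.29 and -0.02 for Ulk1. The last of these was 0.003 after the shift to the same median. Optn ranged from 5.40 to 13.0 FPKM in CR mice at 15 months, wider than in any other group. The lowest, CR 15 months replicate 3, also had the lowest region score of its group (-2.38), and the highest, replicate 4, had a score of -0.21. Replicate 3 also had the highest summed dentate gyrus markers of its group (195 FPKM). Replicate 4 had the lowest summed CA1 markers (145 FPKM) and the highest summed CA3 markers (146 FPKM). The part of tissue makeup in the spread of Optn was not tested. Ulk1 in CR mice at 15 months, from 21.3 to 28.3 FPKM (median 24.1), covered the range of the AL mice of that age.

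**Figure D4:**
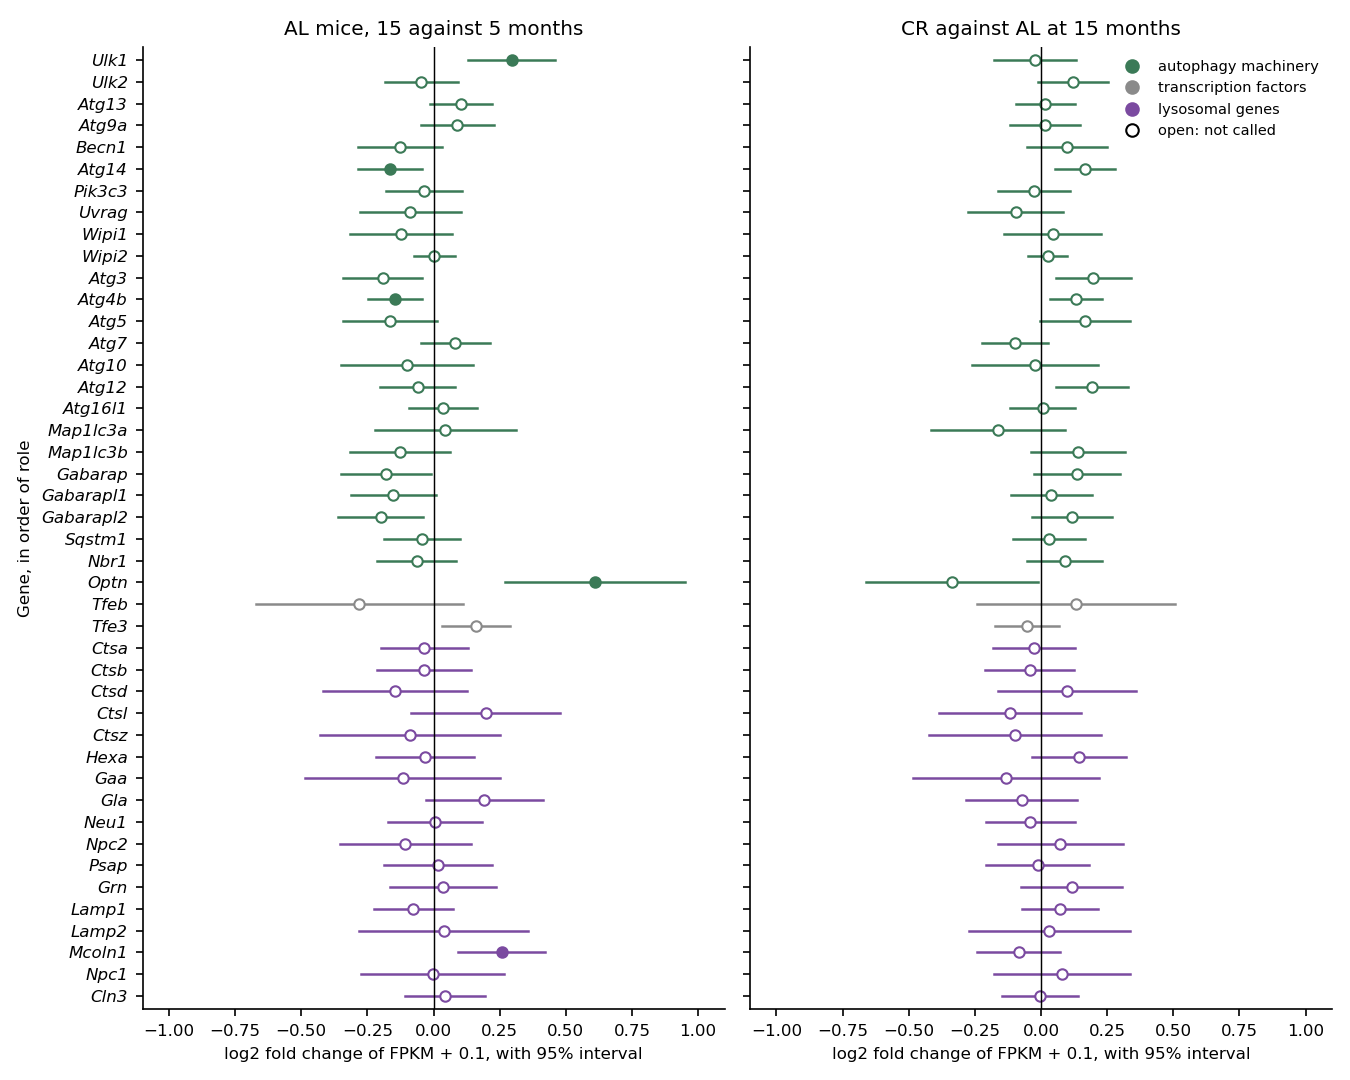
Log2 fold change (points) with 95% interval (bars) of the 44 genes for AL mice at 15 against 5 months (left) and for CR against AL at 15 months (right), coloured by class. Filled points passed a limma adjusted p under 0.05, which 5 genes did on the left and 0 on the right, and both panels use the same AL mice at 15 months.

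Diet at 5 months gave no call in the set or in the whole table: 0 of 44 and 0% of 16978 genes had a limma adjusted p under 0.05. The paper used another test, Cuffdiff, and does report genes that differ between the diets at this age. At an unadjusted limma p under 0.05 there was 1 gene of the set (2.27%), beside 789 genes (4.65%) in all. That gene was Gaa, with 56.6, 97.5, 106, 118 and 88.8 FPKM in AL mice and 109, 108, 124, 149 and 118 FPKM in CR mice. AL 5 months replicate 0 was far below the rest, and the groups overlapped, with a log2 fold change of 0.41 (SE 0.18, limma adjusted p of 1). Atg12 (0.13) and Ulk1 (0.11) followed, both with a limma adjusted p of 1. Atg12 had 37.4, 35.6, 30.9, 30.0 and 31.9 FPKM in AL mice and 33.9, 39.0, 37.6, 36.9 and 33.5 FPKM in CR mice, and Ulk1 had 22.2, 23.8, 22.3, 21.7 and 20.1 FPKM in CR mice. Both genes overlapped between diets, and so did the rest of the set, while 1.36% of all tested genes did not. The 95% interval lay within 1.5-fold for 43 of the 44 genes.

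Age in CR mice gave 1 call, Gaa (chr11:119267887-119285454, plus strand), which encodes the enzyme that frees glucose from lysosomal glycogen and is lost in Pompe disease. It had 57.4 to 95.8 FPKM (median 78.6) in CR mice at 15 months, below each of the 5 CR libraries at 5 months given above. Its log2 fold change came to -0.66 (SE 0.18, limma adjusted p = 0.0426; exact permutation p = 0.00433), from 122 to 77.3 FPKM. The call is 2.27% of the set, where 3.36% of all tested genes were called (2.26% lower), and groups without overlap numbered 1 in the set and 3.26% of all genes. In AL mice, Gaa was at 93.5 and 85.7 FPKM (log2 fold change -0.12, limma adjusted p = 0.669).

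The call for Gaa was lost without any single CR library but CR 15 months replicate 4, with adjusted p up to 0.0978, and without AL 5 months replicate 1 or 4 or AL 15 months replicate 0 or 3, which share the estimate of spread. Among CR mice at 5 months the highest Gaa, 149 FPKM, was in replicate 3, which stood second in choroid plexus markers, while replicate 4, far higher in those markers, had 118 FPKM, the median of its group. Without replicates 3 and 4 the log2 fold change came to -0.57 (adjusted p = 0.225), and with the choroid plexus score as a covariate it was -0.33 (adjusted p = 0.922). The 2 ages of CR mice did not overlap in the summed choroid plexus markers, at 8.77 to 238 FPKM and 0.335 to 2.23 FPKM, so age and choroid plexus content cannot be told apart here.

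When the older CR mice were set against the younger AL mice, 0 of the 44 genes were called by limma, beside 3.12% of all tested genes, and 3 had an unadjusted limma p under 0.05 (6.82%, beside 19.3%). They were Ulk1, Mcoln1 and Atg13. Ulk1 stood at 20.3 FPKM in the younger AL mice and 24.7 FPKM in the older CR mice, a log2 fold change of 0.27 (SE 0.08, limma adjusted p = 0.0615), and it passed without CR 15 months replicate 2, 3 or 4 (adjusted p from 0.0305 to 0.0418). Mcoln1 was at 28.8 and 32.7 FPKM (0.17, limma adjusted p = 0.233), with 27.4 to 38.0 FPKM (median 32.7) in the older CR mice. Atg13 had 30.2, 31.6, 29.2, 30.7 and 30.2 FPKM in younger AL mice and 28.6 to 35.8 FPKM (median 33.8) in older CR mice (0.12, limma adjusted p = 0.257). All 3 overlapped between the groups, as did the other 41 genes of the set, where 2.94% of all tested genes did not overlap. Of the 88 further pathway genes 1 was called, the galactosylceramidase Galc (0.25, limma adjusted p = 0.0271).

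Whether the CR difference itself changed between the ages was tested by the interaction of age and diet. It gave 0 calls in the set and 0% in the whole table, with 2 genes of the set (4.55%) and 1301 genes (7.66%) at an unadjusted limma p under 0.05. The CR difference was 0.23 higher on the log2 scale at 15 months than at 5 months for Atg14 (SE 0.08, limma adjusted p = 0.608), and the interaction was -0.54 for Gaa (SE 0.25, limma adjusted p = 0.639). Map1lc3a followed at -0.31 (SE 0.18, limma adjusted p = 0.695), with 114, 119, 142, 127 and 132 FPKM in AL mice and 139, 138, 148, 122 and 155 FPKM in CR mice at 5 months. At 15 months Map1lc3a ran from 117 to 153 FPKM (median 130) in AL mice and from 84.1 to 145 FPKM (median 128) in CR mice, with replicates 3 and 4 at 84.1 and 87.1 FPKM below all others. Of their group, replicate 3 had the highest summed dentate gyrus markers (195 FPKM) and replicate 4 the highest summed CA3 markers (146 FPKM). The part of tissue makeup in these Map1lc3a values was not tested. The interval of the interaction is wide, within 1.5-fold for 37 of the 44 genes.

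The machinery and the lysosomal genes were also compared as wholes, by the mean over the genes of each class. In mice of 5 months the mean log2 level of the 25 machinery genes was 5.11 ± 0.041 (SD, n = 5) under AL feeding and 5.12 ± 0.062 (SD, n = 5) under CR. In mice of 15 months it was 5.08 ± 0.067 (SD, n = 6) under AL feeding and 5.12 ± 0.065 (SD, n = 6) under CR. For the 17 lysosomal genes it stood at 5.21 ± 0.055 (SD, n = 5) and 5.27 ± 0.15 (SD, n = 5) in younger AL and CR mice, then at 5.22 ± 0.047 (SD, n = 6) and 5.22 ± 0.12 (SD, n = 6) in older ones. All 4 groups overlapped in both classes, and no test was made of these means. Lysosomal genes minus machinery came to 0.10, 0.15, 0.14 and 0.10 in the same order.

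A single library stood apart for lysosomal genes in CR mice at 5 months. Replicate 4, which had the most choroid plexus marker signal, was the highest of its group for 22 of the 44 genes, 11 of them lysosomal. The share over all tested genes was not computed, and other libraries had similar counts. CR 5 months replicate 0 was the lowest of its group for 22 genes. AL 15 months replicate 5 was the highest of its group for 17 genes, 15 of them machinery. CR 15 months replicate 5 was the highest for 15, 8 of them lysosomal. Lamp2, a lysosomal membrane protein needed for fusion with autophagosomes, was at 62.1 FPKM in CR 5 months replicate 4 and at 28.8, 29.3, 28.3 and 33.1 FPKM in the other 4. Ctsd was at 293 FPKM in replicate 4 and at 145, 176, 186 and 182 FPKM in the others, and Npc2, which hands cholesterol to Npc1, was at 31.0 FPKM and at 17.5, 19.0, 19.0 and 19.9 FPKM. Folr1, a choroid plexus marker, was at 70.7 FPKM in that library and at most 3.80 FPKM in AL mice of the same age. Without replicates 3 and 4, diet at 5 months still gave 0 calls in the set, and the part of choroid plexus in these levels was not tested.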

How the data were processed

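CA1 mRNA was sequenced from 22 mice with an unstranded library kit. The authors aligned reads to mm10 with TopHat, removed duplicates with Picard and deposited FPKM per gene, estimated by Cufflinks with corrections for fragment bias and multiply mapped reads. Versions and the annotation are not given in the sources used here. The paper reports only the average number of reads per sample. Low FPKM values did not fall on whole reads, so the depth of each library is unknown and no counting interval is given. All value columns were mapped to a sample. The NanoString measurements of the study were not analysed here.

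Groups follow the sample titles. Genes averaging at least 0.1 FPKM, 16978 in all, were fitted as log2(FPKM + 0.1) with limma 3.58.1 (R 4.3.3), using 4 group means over the 22 libraries, empirical Bayes with a trend and Benjamini-Hochberg adjustment within each of 6 contrasts. Genes with an adjusted p under 0.05 are called. The paper called genes with Cuffdiff, which was not run here, so its counts over all genes differ from those given here. Fold changes are on the log2(FPKM + 0.1) scale, which understates the change of low genes. Permutation tests are exact and two-sided (scipy 1.17.1), with ranges and counts from pandas 2.3.3. The fit was also run on simulated data with known changes. These were larger than any fold change of the set, and the noise was independent between genes, so that run does not test the calls reported here. Loci are from GENCODE on GRCm38 and promoter windows from RefSeq.

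The 44 genes, the pathway lists and the marker lists were chosen with earlier results of these data known. Values, each one in groups of 5 and the lowest, median and highest in groups of 6, are given for called genes, up to 8 per direction with age in AL mice and up to 3 per direction elsewhere, and for the 3 smallest p where none was called. Those of Wipi2, Lamp2, Ctsd and Npc2 were added after their values were seen. Of 35 alternative settings, 22 left out 1 library each. The others changed the pseudocount, filter, scaling, trend, pooling of groups, replicate block or marker score covariates, and 1, without both CR 5 months libraries highest in choroid plexus markers, was chosen after seeing the data.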

Additional observations from a re-analysis of the deposited data

Results flagged for a closer look

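Libraries far from the rest of their group were sought by Dixon's test in 176 groups of 5 or 6 FPKM values (44 genes in 4 groups). It singled out 7, where chance gives about 1 in 20 groups, or 8.8.

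Gabarapl2 accounted for 3 of them. AL 5 months replicate 3 was low at 150.5 FPKM (the others 169 to 172 FPKM), AL 15 months replicate 1 was low at 122 FPKM (143 to 157 FPKM), and CR 15 months replicate 2 was high at 193 FPKM (146 to 157 FPKM). Gabarapl2 has 3 other annotated genes of near-identical transcript sequence, and their part in these values was not tested. In CR 5 months replicate 4, the library highest in choroid plexus markers, Lamp2 was at 62.1 FPKM (28.3 to 33.1 FPKM) and Npc2 at 31.0 FPKM (17.5 to 19.9 FPKM). Pik3c3, the lipid kinase of the nucleation complex, was low in CR 5 months replicate 0, at 18.1 FPKM (21.2 to 22.2 FPKM). Npc1, the cholesterol transporter of the lysosomal membrane, was high in CR 15 months replicate 5, at 24.2 FPKM (13.6 to 16.6 FPKM). The interaction of age and diet gave 0 calls among the 44 genes.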

How the results depend on the processing

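The 18 fold changes of called genes, or of the 3 smallest p where none was called, kept their direction under all alternatives that could be fitted. Over all 44 genes, either of the other scalings changed the sign of 13 fold changes with age in AL mice and of 13 for CR against AL at 15 months, the largest of them 0.0762 in size. With age in AL mice, the 5 calls became 0 with the region score, 0 with the microglia score and 2 with the choroid plexus score as a covariate, and 2 to 8 with a library left out. With age in CR mice, the call for Gaa became 0 calls with all genes above 0, with genes of mean FPKM of at least 1, with quantile normalization, with the region or choroid plexus score, and without both CR 5 months libraries highest in choroid plexus markers, and 0 to 1 with a library left out. With a library left out, CR against AL at 15 months gave 0 to 2 calls, and older CR mice against younger AL mice 0 to 1. CR against AL at 5 months and the interaction kept 0 calls throughout. Replicate numbers did not pair the mice: of 31 pairs with the same number, 2 had deviations correlated above 0.1 (range -0.14 to 0.16). A replicate block gave 6 calls with age in AL mice, 0 with age in CR mice and 1, Ulk1, in older CR mice against younger AL mice, and left the other counts at 0. The causes were not tested. A fit of the compared groups alone was not possible for the interaction. The depth of each library is unknown, so no counting error was computed for low genes such as Tfeb.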
